A study of Mus musculus with 4 samples.

Results

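The genes described are those of the mouse major histocompatibility complex (MHC, called H2 in the mouse) and of antigen presentation. A gene was included where its name on the array started with H2- or was B2m, Tap1, Tap2, Tapbp, Psmb8, Psmb9, Psmb10, Cd74, Ciita, Nlrc5, Erap1 or Cd1d1. These were 47 of the 24172 genes measured, through 84 of 44170 targets, a target being a transcript that the array reads with a small set of probes. By the labels, the RNA came from N2a (Neuro2a) cells, a mouse neuroblastoma line derived from a strain A mouse, transfected with scramble siRNA as the control or with Men1 siRNA, which targets the mRNA of menin. Each group had 2 single-colour arrays, called scramble arrays and Men1 siRNA arrays here. The labels give no time after transfection and no sign that the arrays of a group stand for separate cultures, so each p-value measures array-to-array spread that could be purely technical.

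MHC class I molecules pair a heavy chain with beta-2 microglobulin and show peptides from inside the cell. The peptides are cut by the proteasome, carried into the endoplasmic reticulum by the Tap1 and Tap2 transporter, and loaded with the help of tapasin, the product of Tapbp. MHC class II molecules pair an alpha and a beta chain, show peptides from endosomes, and are made mainly by professional antigen-presenting cells. Interferons raise class I and its peptide supply, Nlrc5 is the class I transactivator and Ciita the class II transactivator, and neurons and neuroblastoma cells are known for low class I levels.

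Promoter sequences are shown first, searched for a few short motifs. Of the 47 genes, 33 had a promoter in the RefSeq table of build GRCm38.p6, and the 250 bases before the transcription start were searched on both strands. The searched motifs were GAANNGAAA, the interferon response type, CCAAT, the Y box, a 10-letter kappa B site of class I genes and a 10-letter X1 box of class II genes, the last with any base at its sixth letter. The letters of the kappa B site and of the X1 box stand in capitals in the stretches of H2-K1 and H2-Eb1 printed here, and no motif overlapped another in the printed stretches. The kappa B site was present for 4 of 18 class I genes (22.2%) and for 27 of all 27025 genes of the table (0.0999%). An exact match to GAANNGAAA was present for 7 of the 18 class I genes (38.9%), for 0 of 6 class II genes, for 0 of 7 processing genes, and for 7.3% of all genes. The following 40-base stretches, 5′ to 3′ on the strand of the gene, cover every class I match to GAANNGAAA, with matches to it (here on the opposite strand, as in TTTCACTTC) and to the kappa B site in capitals.
H2-K1, chr17:34000424-34000463, minus strand: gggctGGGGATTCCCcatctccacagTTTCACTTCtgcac
H2-D1, chr17:35262918-35262957, plus strand: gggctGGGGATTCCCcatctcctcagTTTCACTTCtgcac
H2-Q6, chr17:35424672-35424711, plus strand: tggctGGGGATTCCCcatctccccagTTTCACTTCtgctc
H2-Q7, chr17:35439016-35439055, plus strand: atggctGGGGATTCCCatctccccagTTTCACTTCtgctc
H2-Q10, chr17:35469908-35469947, plus strand: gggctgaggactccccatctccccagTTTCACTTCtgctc
H2-M3, chr17:37270107-37270146, plus strand: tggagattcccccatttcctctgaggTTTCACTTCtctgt
H2-M2, chr17:37483683-37483722, minus strand: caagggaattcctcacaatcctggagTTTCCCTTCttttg
In H2-K1, H2-D1 and H2-Q6 the 2 matches lay 11 bases apart, and in H2-Q7 10 bases apart. H2-T23 and H2-T22 had neither exact match in this window. The exact search did not count similar letters, such as GAAACTGAAA in the processing gene B2m and TTTCACTTTC in H2-T22. A gene without a match to the searched letters may therefore still hold an interferon-type site.

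All 6 class II genes with a promoter in the table held CCAAT, against 37.5% of all genes and 15 of 18 class I genes (83.3%). Among the 6, H2-Eb1 alone held an exact match to the searched X1 letters, which 0.185% of all genes held. Similar letters, such as GTAACTGATG in H2-DMb1 and GCAACAAATG in H2-Ob, were not counted by the exact search. The 50-base stretches of 5 of the 6 genes run from 40 bases before a Y box to 5 bases after it, with matches to the X1 box and to CCAAT in capitals. These Y boxes lie on the opposite strand of the gene and so read ATTGG. H2-DMa held CCAAT only farther from the start, at 198 to 194 bases, and is not printed. The match lay in its promoter window starting at 34125268 and not in the one starting at 34122582.
H2-Eb1, chr17:34305768-34305817, plus strand: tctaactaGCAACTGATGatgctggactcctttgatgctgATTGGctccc
H2-DMb1, chr17:34153090-34153139, plus strand: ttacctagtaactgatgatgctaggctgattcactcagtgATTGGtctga
H2-DMb2, chr17:34145119-34145168, plus strand: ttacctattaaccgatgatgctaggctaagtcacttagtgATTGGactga
H2-Ob, chr17:34238808-34238857, plus strand: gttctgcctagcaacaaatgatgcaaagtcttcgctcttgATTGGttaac
H2-Aa, chr17:34287862-34287911, minus strand: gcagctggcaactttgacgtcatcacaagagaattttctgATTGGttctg
A match to these letters describes the sequence only, and no binding was measured.

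Intensities are the authors' linear summaries per target, and array medians lay between 145.9 and 151.2. The 5000 random-sequence probes read 42.8 to 52.3, and an intensity of 100 was treated as clearly above background. Men1 itself read 6985 and 6222 on the scramble arrays against 2764 and 4109 on the Men1 siRNA arrays, which was −0.97 ± 0.35 (SE) on the log2 scale and did not pass (limma adjusted p = 0.314). The image names stored inside the files of 3 of the 4 arrays differed from their file names, and for 1 Men1 siRNA array the image name carries no group, so groups and replicate numbers rest on the labels. Of 24172 genes, 94 passed an adjusted p of 0.05 in limma (0.389%), 85 of them lower with Men1 siRNA (0.352%) and 9 higher (0.0372%). Leaving out any 1 array left 0, while 2105 to 3357 genes had an unadjusted p under 0.05. The general neuronal marker Tubb3 read 34397 to 40661 and Stmn2 14670 to 24964. Of 16 listed neuronal and neuroblast markers 12 were measured, and 11 of them had positive changes with 0 past the test.

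No antigen presentation gene passed the test over all genes. The measured change was negative for 16 of 25 class I and 7 of 8 processing genes and positive for 7 of 9 class II genes, and the difference between these groups was not tested. Tap2, Tapbp and the class I heavy chain H2-T23 read between 3.05-fold and 4.12-fold lower with Men1 siRNA. For H2-T23 this held at the brighter of 2 targets, and the other had −0.06 with overlapping groups. The class II chain H2-Ea read lower too, by an uncertain size because 1 of its Men1 siRNA arrays was at the level of random probes. The class II genes H2-DMb1, H2-DMb2, H2-Ab1 and H2-Ob read 2.01-fold to 3.18-fold higher at their brightest targets. Over the mean of each gene's targets their log2 changes were smaller, at 0.75, 0.99, 0.29 and 0.64 in that order. These are bulk RNA values, in which fewer cells of a type and less RNA per cell cannot be told apart, and all 8 markers each of endothelium, fibroblasts and epithelium also read lower on the Men1 siRNA arrays. Of 15 leukocyte markers 8 read higher and 7 lower. Of the 47 genes, 0 passed an adjusted p of 0.05 in limma, where 0.389% of all genes did, and the smallest adjusted p was 0.0854. By unadjusted p under 0.05 the count was 12 of 47, 7 lower and 5 higher, against 14.2% of all genes, and 6 without scramble siRNA replicate 1. Groups stood apart, with no overlap between arrays, for 27 of 47 genes, 17 with Men1 siRNA lower and 10 with it higher, against 47.5% of all genes. In all, 37 genes had both arrays of at least 1 group at 100 or more. Other settings of limma called some of the genes. A prior that follows intensity called 7 of 47 (all genes 2.94%), the genes above the median intensity alone gave 5 of 32 (4.77%), the value table of the authors gave 4 of 34 (3.32%) and a pseudocount of 32 called 1 of 47 (1.04%).

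**Figure D1:**
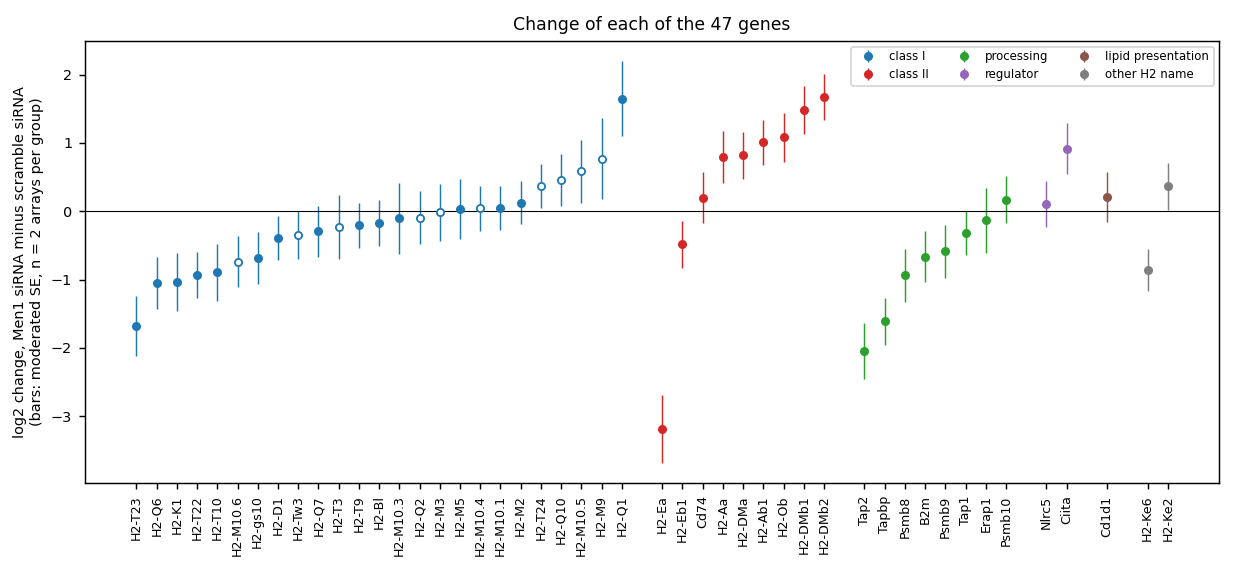
Log2 change of each of the 47 genes with Men1 siRNA relative to scramble siRNA, grouped by role; points are limma estimates and bars the moderated SE (n = 2 arrays per group), and open points are genes without a group in which both arrays reached an intensity of 100. Most measurable class I and processing genes sit below 0, 7 of the 9 class II genes sit above 0, and H2-Ea is lowest at −3.19.

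The class I heavy chains as a group stood near the background of all genes. Of 25 class I genes 16 had a negative and 9 a positive change, with a median of −0.17, where all genes had a median of 0.06. Leaving out scramble siRNA replicate 2 made that median −0.017 and leaving out replicate 1 made it −0.29. It was −0.39 in the value table, −0.54 among genes above the median intensity and 0.00 with a floor at 100. At an unadjusted p under 0.05, 3 were lower and 1 higher (16%, against 14.2% of all genes). The arrays stood apart for 8 with Men1 siRNA lower and for 2 with it higher (40%, against 47.5% of all genes). H2-gs10 and H2-Tw3 are counted here because the array describes H2-gs10 as an H2-Q4 chain and H2-Tw3 as similar to H2-T3.

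H2-K1 and H2-D1 encode the classical heavy chains that present peptides to CD8 T cells. H2-K1 (gene ID 14972, chromosome 17, 34132971 to 34136751 on MM9) read 12747 and 7749 on the scramble arrays against 3840 and 6179 on the Men1 siRNA arrays. The 2 groups did not overlap, the scramble arrays being higher, and the log2 change was −1.03 ± 0.42 (SE, n = 2 per group; limma adjusted p = 0.36). H2-D1 (gene ID 14964, at 35400038 to 35403004 of the same chromosome) had the brightest class I target and read 16446 and 14151 against 10470 and 12948. Its groups did not overlap either, with a smaller change of −0.39 ± 0.32 (adjusted p = 0.625).

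Among the nonclassical chains, H2-T23 encodes Qa-1, which shows leader peptides of other class I chains to natural killer cell receptors. At the brighter of its 2 targets, H2-T23 (gene ID 15040) read 2832 and 1568 on the scramble arrays against 522.8 and 829 on the Men1 siRNA arrays. The other target, placed at 36166915 to 36169635 on MM9, read 327.9 and 330.6 against 239.3 and 415.7 (−0.06), with overlap. At the brighter target the groups stood apart, and the change was the most negative among the targets that stood for the 25 class I genes (−1.68 ± 0.44, SE; limma adjusted p = 0.214). Among the alternatives it passed with a prior that follows intensity only (adjusted p = 0.0315, against 0.0661 to 0.587 in the others), and the mean of its targets was −0.87. H2-T22 and H2-T10 encode chains that bind no peptide and are seen by gamma-delta T cells. H2-T22 read 1586 and 1110 against 667 and 722.8 (−0.93 ± 0.34; adjusted p = 0.316), and H2-T10 read 1463 and 1311 against 540 and 1030 (−0.89 ± 0.41; adjusted p = 0.405). Both genes had Men1 siRNA below scramble siRNA on every array. H2-T9 read 892.7 and 1160 against 954.2 and 815.6, with overlapping groups, at the target that stood for it. Its other target, of nearly the same mean level, had −1.96.

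The Q region genes were less uniform. H2-Q6 read 1189 and 862.1 on the scramble arrays against 399.4 and 597.6 on the Men1 siRNA arrays (−1.05 ± 0.38, SE; limma adjusted p = 0.31). H2-gs10 read 1964 and 1243 against 845.6 and 1121 (−0.68 ± 0.38; adjusted p = 0.477), and the groups of both genes stood apart. The brighter target named H2-Q7, the gene of Qa-2, read 7598 and 5924 against 4335 and 6888, and its groups overlapped. That target was placed at 35534274 to 35534745 on MM9, before H2-Q6 at 35561821 to 35565304. The other H2-Q7 target was placed after H2-Q6, at 35576099 to 35580494. In GRCm38.p6 the promoter of H2-Q7 also lies after that of H2-Q6, so the brighter value may not come from H2-Q7. The other target was much dimmer, with 442.9 and 407.7 against 411.7 and 506.2 (0.10), also with overlap. H2-Q1 went the other way at its brighter target, with 110.7 and 47.4 against 163.9 and 314.7 (1.65 ± 0.55; adjusted p = 0.291), 1 scramble array being under 100. Its dimmer target read 81.7 and 117.1 against 61 and 55.25 (−0.75), with the groups apart and Men1 siRNA lower.

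The remaining class I genes were near background or had overlapping groups. H2-Bl, named for the blastocyst, read 383.8 and 452 against 435.7 and 313.9. H2-M10.1, of a family known from vomeronasal neurons, read 556.7 and 619.1 against 527.7 and 697.6. H2-M5 read 380.1 and 420.4 against 584.6 and 286.1, H2-M10.3 114.2 and 249.3 against 117.4 and 210.4, and H2-M2 112.5 and 92.5 against 108.5 and 113.9. The groups of these 5 genes overlapped. The other 10 class I genes (H2-M3, H2-M9, H2-M10.4, H2-M10.5, H2-M10.6, H2-Q2, H2-Q10, H2-T3, H2-T24 and H2-Tw3) had no group with both arrays at 100, with intensities from 27.3 to 155.3, 7 of them lay under 100 on all arrays, and their changes ran from −0.74 to 0.77. H2-M3, which presents formylated bacterial peptides, belonged to these 10 and read 80.1 and 135.5 against 125 and 84.7.

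**Figure D2:**
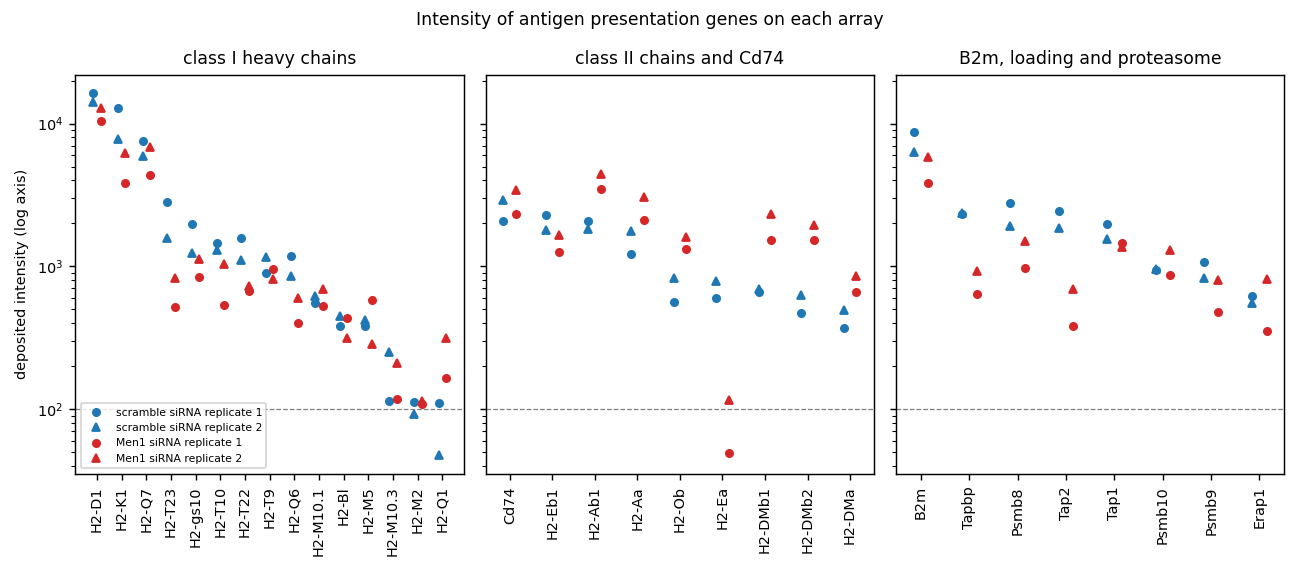
Deposited intensity on a log axis for each array, for the class I, class II and processing genes with both arrays of a group at 100 or more; blue is scramble siRNA, red is Men1 siRNA, circles are replicate 1, triangles replicate 2, and the dashed line marks 100. The red points of Tap2, Tapbp, H2-T23 and H2-Ea lie below the blue ones, and those of H2-DMb1, H2-DMb2, H2-Ob and H2-Ab1 above them.

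The light chain and the peptide supply of class I also read mostly lower. Of the 8 processing genes 7 had a negative change, with a median of −0.63, and for 6 the arrays stood apart, all with Men1 siRNA lower, against 21.7% of all genes. B2m (gene ID 12010, chromosome 2, 121973467 to 121978609 on MM9), the gene of beta-2 microglobulin, read 8692 and 6365 on the scramble arrays against 3807 and 5802 on the Men1 siRNA arrays. That is a change of −0.66 ± 0.38 (SE; limma adjusted p = 0.485), with no overlap between groups.

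Tap2 and Tapbp had the largest differences of the loading genes. Tap2 (gene ID 21355, chromosome 17, 34341523 to 34353266 on MM9) read 2450 and 1847 on the scramble arrays against 384.2 and 692.6 on the Men1 siRNA arrays, a 4.12-fold difference (−2.04 ± 0.41, SE; limma adjusted p = 0.14). Tapbp (gene ID 21356, chromosome 17, 34056620 to 34066235 on MM9) read 2322 and 2375 against 638.3 and 926.1, a 3.05-fold difference (−1.61 ± 0.34; adjusted p = 0.154). The groups of both genes stood far apart, with no Men1 siRNA array near a scramble array. Each passed in 3 alternatives, namely with a prior that follows intensity (adjusted p = 0.00996 and 0.0115), among genes above the median intensity (0.0313 and 0.0335) and in the authors' value table (0.03 and 0.0337). Tap1, the partner of Tap2 in the transporter, read 1993 and 1562 against 1459 and 1373. Its change of −0.32 ± 0.32 (adjusted p = 0.689) was smaller, although the groups did not overlap. The difference between Tap1 and Tap2 was not tested. Erap1, the aminopeptidase that trims peptides in the endoplasmic reticulum, read 622.1 and 553.7 against 350.2 and 818.6, with overlapping groups.

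Psmb8, Psmb9 and Psmb10 encode the catalytic subunits that interferon adds to the proteasome. Psmb8 read 2769 and 1927 on the scramble arrays against 965.9 and 1503 on the Men1 siRNA arrays (−0.94 ± 0.39, SE; limma adjusted p = 0.364). Psmb9 read 1067 and 823.6 against 482.2 and 805.7 (−0.59 ± 0.39; adjusted p = 0.544). The groups of both stood apart, for Psmb9 by a small margin. Psmb10 read 944.6 and 951.1 against 874.6 and 1302, and its groups overlapped. Psmb9 and Tap1 are divergent neighbours whose 300-base promoter windows share 275 bases.

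The class II genes read mostly higher, with H2-Ea as the main exception. Of 9 genes 7 had a positive and 2 a negative change, with a median of 0.82 against 0.06 for all genes. At an unadjusted p under 0.05, 4 were higher and 1 lower, against 6.47% and 7.74% of all genes, and the arrays stood apart for 8 of 9, with 6 higher and 2 lower, against 25.8% and 21.7% of all genes. With the mean of all targets of a gene the median was 0.29.

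H2-Aa and H2-Ab1 encode the alpha and beta chains of I-A. H2-Ab1 (gene ID 14961, chromosome 17, 34400207 to 34406355 on MM9) read 2081 and 1822 on the scramble arrays against 3460 and 4430 on the Men1 siRNA arrays (1.01 ± 0.33, SE; limma adjusted p = 0.278). H2-Aa (gene ID 14960) read 1218 and 1769 against 2118 and 3050 (0.79 ± 0.38; adjusted p = 0.415). For both chains every Men1 siRNA array was above every scramble array. As the mean of their targets the changes were 0.29 for H2-Ab1 and 0.19 for H2-Aa.

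H2-Ea and H2-Eb1 encode the alpha and beta chains of I-E. H2-Ea (gene ID 14968, chromosome 17, 34478896 to 34481590 on MM9) read 597.7 and 784.5 on the scramble arrays against 48.9 and 115.6 on the Men1 siRNA arrays. The change was −3.19 ± 0.49 (SE; limma adjusted p = 0.0854), the largest of the 47 genes, and its size is uncertain because 1 Men1 siRNA array was under 100. With a floor at 100 it was −2.67 (adjusted p = 0.155). It passed among genes above the median intensity (adjusted p = 0.0151), with a prior that follows intensity (0.0132) and with a pseudocount of 32 (0.0394), and with 1 array left out the adjusted p ran from 0.0959 to 0.396. H2-Ea is not transcribed in C57BL/6 mice, whereas strain A mice carry an intact gene. H2-Eb1 read 2303 and 1788 against 1268 and 1664 (−0.48 ± 0.34; adjusted p = 0.569), with no overlap between groups.

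H2-DMa, H2-DMb1 and H2-DMb2 encode the chains of the peptide editor H2-M, and H2-Ob the beta chain of H2-O, which restrains it. H2-DMb2 (gene ID 15000) read 472.4 and 627.8 on the scramble arrays against 1539 and 1952 on the Men1 siRNA arrays (1.67 ± 0.34, SE; limma adjusted p = 0.144). H2-DMb1 (gene ID 14999) read 657.9 and 698.9 against 1538 and 2320 (1.48 ± 0.35; adjusted p = 0.183). H2-Ob read 565.7 and 830.5 against 1317 and 1595 (1.08 ± 0.35; adjusted p = 0.284), and H2-DMa 368.4 and 495.7 against 662.7 and 855.7 (0.82 ± 0.35; adjusted p = 0.37). In all 4 genes the groups stood apart, with the Men1 siRNA arrays on top. H2-DMb2 and H2-DMb1 passed with a prior that follows intensity (adjusted p = 0.0133 and 0.0227), among genes above the median intensity (0.0297 and 0.0475) and in the authors' value table (0.0305 and 0.0494). Cd74, the invariant chain that escorts class II molecules to endosomes, read 2077 and 2921 against 2327 and 3423, with overlapping groups.

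Of the regulators, Nlrc5 read near the array medians and Ciita above them. Ciita read 270.9 and 242.6 on the scramble arrays against 379 and 616.8 on the Men1 siRNA arrays at the brightest of its 5 targets (0.92 ± 0.37, SE; limma adjusted p = 0.354). The groups stood apart at that target only, and the other 4 ran from −0.35 to 0.41 with overlap. Nlrc5 read 135.2 and 136.9 against 122.7 and 175.1, and its groups overlapped. Cd1d1, which presents lipids to natural killer T cells, read 106.1 and 122.5 against 104.8 and 166.7, also with overlap. H2-Ke6 and H2-Ke2 carry H2 names without encoding MHC chains. H2-Ke6, a dehydrogenase gene, read 2162 and 2020 against 1134 and 1169 (−0.86 ± 0.30; adjusted p = 0.308), and H2-Ke2, now Pfdn6 and a prefoldin subunit gene, read 1557 and 1061 against 1621 and 1695.

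Different targets of 1 gene did not always move together. Of the 23 genes with several targets 9 had targets of both signs. H2-T9 had −1.96 ± 0.39 (SE) at one target, 2170 and 1569 against 382 and 589.7, and −0.21 at the target that stood for it. H2-T23 had −1.68 and −0.06, and H2-Q1 −0.75 and 1.65. H2-D1 had −0.70, −0.39 and −0.16, with overlapping groups at the last, and H2-K1 had −1.03, −0.64 and 0.27. The 4 targets of H2-Bl ran from −1.12 to −0.17, and the brightest, which stood for the gene, had the smallest size. The 3 targets of H2-T10 ran from −1.22 to −0.88 and both of H2-T22 and of Psmb8 were negative, with the arrays apart at each of them. Among class II genes, H2-DMb1 had 1.48, 1.02 and −0.24, H2-DMb2 had 1.67 and 0.31, H2-Ab1 had −0.84 at 1 target of 4, and the 4 targets of H2-Aa ran from −0.65 to 0.79. The second target of H2-Eb1 had 0.45, the opposite sign of the first, and that of Cd74 −0.27. Over targets rather than genes, 29 of 42 class I targets and 10 of 11 processing targets were negative, and 16 of 22 class II targets positive, with 0 of 84 past an adjusted p of 0.05 in limma over all targets (0.34% of all targets) and 19 at an unadjusted p under 0.05 (13.6% of all targets).

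**Figure D3:**
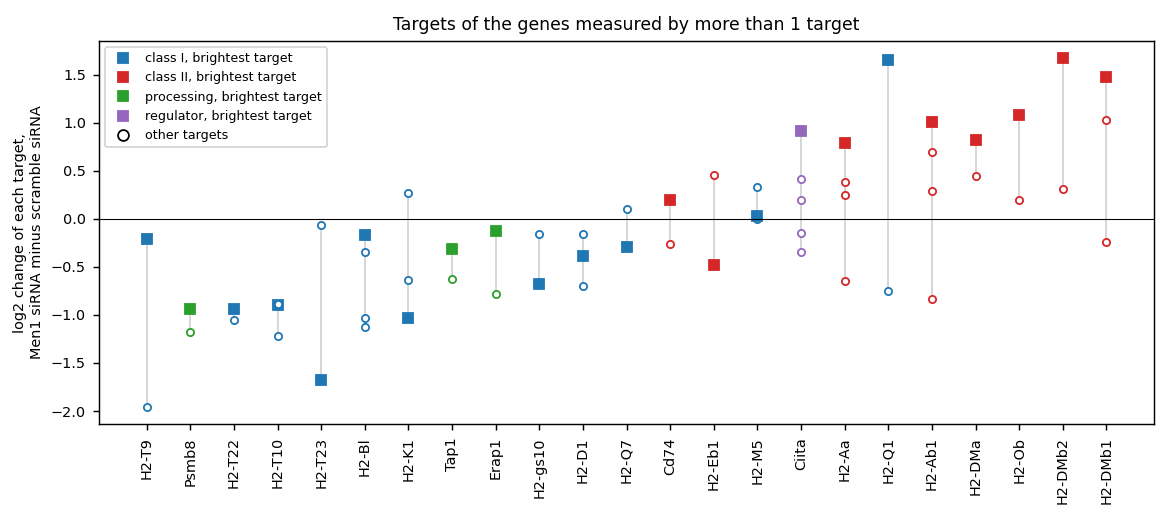
Log2 change with Men1 siRNA relative to scramble siRNA of every target of the 23 genes with more than 1 target, ordered by the gene's median; filled squares are the brightest target, which stood for the gene, and open circles the others. All targets of H2-T10, H2-T22 and Psmb8 lie below 0, whereas those of H2-K1, H2-Q1, H2-Ab1 and H2-DMb1 lie on both sides of it.

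Near-identical paralogs make some of these values uncertain. The placements of targets on MM9 overlapped between different genes for 10 genes in 10 pairs. A target of H2-T9 was placed at H2-T22 (36175353 to 36179637 against 36175351 to 36179635 on chromosome 17). The H2-T9 target with −1.96 spanned from H2-T22 to H2-T10 (36175351 to 36258371), and the H2-T23 target with −1.68 from 36166709 to 36248612. One H2-DMb1 target and 1 H2-DMb2 target had the same placement across both genes, 34282360 to 34297174, and the array's own description calls the brighter H2-DMb2 target a transcript of the neighbouring locus. H2-T3, the thymus leukaemia antigen, and H2-Tw3 shared a placement too. The transcripts of these genes cannot be told apart with confidence here, and which probes the paralogs share is not given in the sources used here. Upstream windows were 88.8% identical for H2-M10.3 and H2-M10.5 and 82% for H2-D1 and H2-Q6, where the median over 153 class I pairs was 51.7%.

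Of the 47 genes 40 lie on chromosome 17, where they span 34056620 to 37620474 on MM9. The 133 other genes measured within that span, among them H2-Q3 and H2-T-ps, which carried other names on the array, had a median change of 0.00, with 66 lower and 67 higher and 0 past the test in limma, and 15 of them (11.3%) at an unadjusted p under 0.05. Class II genes with positive changes sat next to processing genes with negative ones, since Tap2, Psmb8, Psmb9 and Tap1 lie between H2-DMb1 and H2-Ob. The neighbours with the smallest p, named after their values were seen, were Slc44a4 (974.6 and 989.8 against 113.6 and 29) and Ltb, the lymphotoxin beta gene (577.9 and 609.3 against 1554 and 1999).

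**Figure D4:**
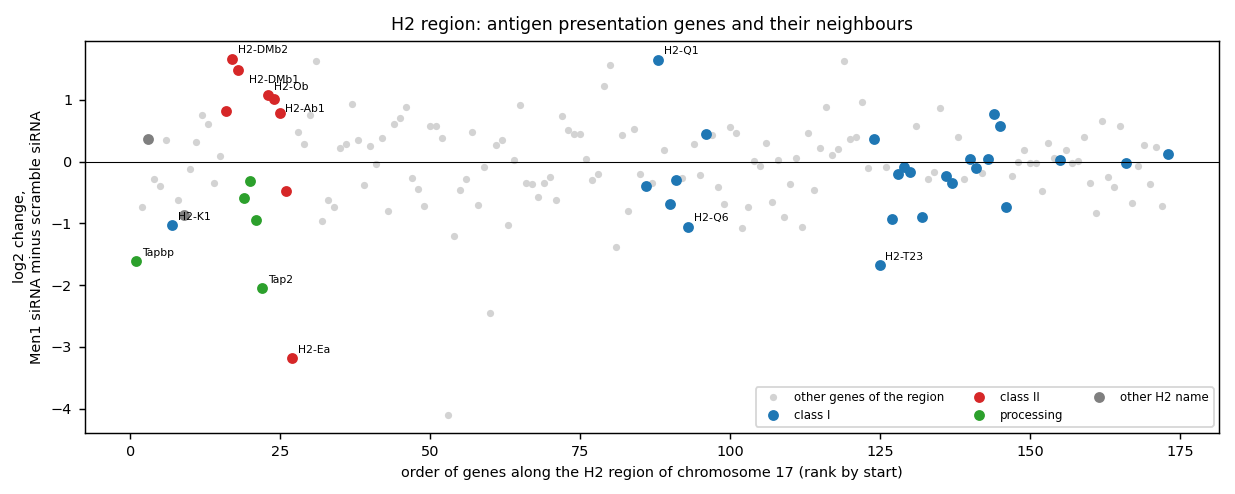
Log2 change with Men1 siRNA relative to scramble siRNA for genes of the H2 region in their order along chromosome 17; coloured points are the antigen presentation genes by role, grey points the 133 other genes. At the left end the negative processing genes Psmb9, Tap1, Psmb8 and Tap2 lie between the positive class II genes H2-DMb1 and H2-Ob. Farther right lie H2-Ab1 and H2-Aa, which are positive, and H2-Eb1 and H2-Ea, which are negative. Tapbp, also negative, lies to the left of the class II genes, and the class I genes other than H2-K1 lie to the right of them.

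Genes that control MHC expression read mostly lower on the same arrays. Of 25 such genes 0 passed in limma, 17 were negative, the median was −0.58, and 7 were lower at an unadjusted p under 0.05 (28%, against 7.74% of all genes). Irf1, an interferon-induced activator of class I and Tap genes, read 1321 and 1246 on the scramble arrays against 145.5 and 377.5 on the Men1 siRNA arrays (−2.45 ± 0.51, SE; limma adjusted p = 0.148). Irf9, the DNA-binding part of the type I interferon complex, had −1.81 ± 0.35 (adjusted p = 0.128) and Jak2, a kinase of the interferon gamma receptor, −1.82 ± 0.39 (adjusted p = 0.158). Rfxank, a subunit of the complex that binds the X box, had −1.15 ± 0.31 (adjusted p = 0.217). Of 18 other genes of peptide supply and loading 12 were negative with a median of −0.08. Tapbpl, a tapasin-related peptide editor, read 1327 and 856.8 against 348.9 and 366.3 (−1.58 ± 0.36; adjusted p = 0.169).

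The 8 class I-like genes outside H2 all had negative changes, with 0 past the test and 4 at an unadjusted p under 0.05 (50%, against 7.74% of all genes lower). Only 3 of the 8 had a group with both arrays at 100, and 2 were under 100 on all arrays. Mr1, which presents vitamin metabolites to innate-like T cells, read 638.5 and 705.3 on the scramble arrays against 113.3 and 112.9 on the Men1 siRNA arrays (−2.57 ± 0.31, SE; limma adjusted p = 0.052). Procr, the endothelial protein C receptor gene, had −1.98 ± 0.42 (adjusted p = 0.154). Of the 15 genes of the class II route and of antigen-presenting cells 11 were positive with a median of 0.27 and 0 past the test. Cd80 and Cd86, which encode costimulatory ligands, read 39.1 and 54.3 against 204 and 380.4, and 58.2 and 74.9 against 112.2 and 214.8 (adjusted p = 0.095 and 0.3).

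Markers of other cell types differed between the groups too. Of 15 measured leukocyte and antigen-presenting cell markers 8 were positive and 7 negative, with a median of 0.12. Their summed intensity was 13067 to 16880 with scramble siRNA and 7731 to 10542 with Men1 siRNA. The sum is weighted to bright genes such as Lyz2, which read 5917 and 4526 against 2150 and 3541. The myeloid marker Cd14 had −2.23 ± 0.31 (SE; limma adjusted p = 0.0725) and Cd68 −1.19 ± 0.33. The pan-leukocyte marker Ptprc read 188.6 to 761.4 with overlap. Itgax, a dendritic cell marker, was under 100 on all arrays and the B cell marker Cd79a read 59.9 to 111.5. All 8 endothelial markers were negative (sums 5693 to 9255 against 1634 to 1661), as were all 8 fibroblast markers (38430 to 41025 against 8767 to 9171) and all 8 epithelial markers (18684 to 28246 against 954.3 to 2120). In these lists 1, 2 and 4 genes passed in limma, each of them lower, where 0.352% of all genes passed as lower. The part of these cell types in the MHC values was not tested.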

How the data were processed

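Total RNA of 4 samples was measured on single-colour arrays. The series text names an Agilent array, but the file format and the labelling protocol are those of NimbleGen. The deposited intensity values are on a linear scale, 1 per target, and come from robust multi-array averaging, per the file headers and names. How background was handled is not stated there. The authors' value table holds the 20620 targets that reached an intensity of 100 on all arrays and served as an alternative. Gene names are those of the array on MM9, updated through gene IDs with RefSeq (43 of 47 members matched). Values were taken to log2 without a pseudocount, each gene was represented by its brightest target (mean log2 over the arrays), and limma 3.58.1 in R 4.3.3 (lmFit, eBayes) tested group over all 24172 genes with Benjamini-Hochberg adjustment, two-sided, at 0.05. The script was tested on simulated data. With 2 arrays against 2, an exact permutation test cannot go below p = 0.333. Promoters were read from RefSeq on GRCm38.p6 and aligned with Biopython 1.88; tables and plots used pandas 2.3.3 and matplotlib 3.10.9 in Python 3.11.15. Named in full were all members without an H2 name and all H2 members with both arrays of a group at 100 or more; from each other list at most 4 genes with the smallest p were named, beside marker genes of the labelled or other cell types that were dim or bright. Protein identity of paralogs was not analysed here. Members, lists and motifs were chosen with earlier results of these data known. The fit was repeated with a block for the replicate number, after dropping each array in turn, after cyclic loess or quantile normalization, without dim genes, on the mean of a gene's targets, on single targets, with a trended or a robust prior, with 32 added to each value, and on the value table; a crossed block and a floor at 100 were added after the data were seen. The number of arrays limits the precision. Some marker genes are counted in their lists but not reported here by name.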

Additional observations from a re-analysis of the deposited data

How the results depend on the processing

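With 94 genes past the threshold in all, 576 passed among genes above the median intensity, 711 with a prior that follows intensity, 252 with a pseudocount of 32, 422 in the value table, 150 targets when every target was tested alone, 8 with a floor at 100 and 0 with crossed replicate numbers as a block. Of the 47 antigen presentation genes 0 passed, and 5, 7, 1 and 4 passed in the first 4 of these alternatives in that order, against 4.77%, 2.94%, 1.04% and 3.32% of all genes tested there. The replicate number as a block left 69 genes and 0 of the 47; the deviations of same-numbered arrays correlated with −0.175, and with crossed numbers 3980 genes and 15 of the 47 had an unadjusted p under 0.05. With one array left out in turn, 0 genes passed in all 4 fits. The class I median of −0.17 was −0.29 to −0.017 with one array left out, −0.54 among genes above the median intensity, −0.39 in the value table and 0.00 with the floor. The class II median of 0.82 was 0.29 with the mean of all targets. For the 37 genes named in full, 514 of 547 values kept direction and side of the threshold, 17 passed only in the alternative, and 16 in 11 genes changed sign, 15 of them with an array left out. These were, as ranges over the arrays left out, H2-Q7 (−0.63 to 0.038), H2-Bl (−0.41 to 0.065), H2-M2 (−0.017 to 0.26), H2-M10.3 (−0.67 to 0.46), H2-M10.1 (−0.15 to 0.25), H2-M5 (−0.48 to 0.55), Cd74 (−0.082 to 0.47), Cd1d1 (−0.12 to 0.55), Psmb10 (−0.12 to 0.46), Erap1 (−0.75 to 0.48) and Nlrc5 (−0.15 to 0.36). Cd74 was also −0.035 as the mean of its targets. The filter on dim genes and the value table test fewer genes; the cause of the other shifts was not tested.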
